A study of Mus musculus with 6 samples.

Results

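Semaphorins of classes 4 to 7 are the vertebrate semaphorins that stay on the cell membrane, by a transmembrane segment in classes 4, 5 and 6 and by a lipid anchor in Sema7a. They carry an extracellular sema domain that binds plexins, receptors whose cytoplasmic part inactivates small GTPases of the Ras and Rap type, so that the actin cytoskeleton and integrin adhesion of the receiving cell are changed. In the brain they are known as guidance cues for axons and migrating cells, and several of them can also act as receptors themselves. The 10 genes described here were listed by name (SEMA4B, SEMA4C, SEMA4D, SEMA4F, SEMA5A, SEMA6A, SEMA6B, SEMA6C, SEMA6D and SEMA7A) and found by their symbol, in any case of letters, among the 23282 gene rows of the deposited tables. Mouse symbols, such as Sema4b, are used from here on.

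They were measured in cultured mouse astrocytes of a line labelled Ink4a -/-, which lacks the tumor suppressor locus in control and treated cells alike and was grown in medium with serum. The control group carries the empty plasmid pcDNA3.1-puro, is given the genotype WT in the labels, and has 3 libraries. The JAG1 group received pcDNA3.1-JAG1-puro, which expresses the Notch ligand Jagged1, and also has 3 libraries. Neither the number of transfections behind each group nor whether the cells were a pool or a clone is stated, so that the p-values below measure the spread between these libraries, which may be technical.

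The tables sum to between 14341634 and 20489062 reads per library, the lowest total being that of JAG1 replicate 2. Jag1 itself had 182, 201 and 214 reads in the control and 304, 197 and 227 in the JAG1 libraries. In CPM this was 10.3 ± 1.17 (SD, n = 3) against 14.2 ± 0.862 (SD, n = 3). The log2 fold change was a small one, 0.46 (standard error 0.11, edgeR adjusted p = 0.00446), and the counts do not tell plasmid transcripts from those of the cell. Of 15 astrocyte markers, Gfap and Aqp4 had 0 reads in every library and Slc1a2, Slc1a3 and Fabp7 had at most 2, while Vim, Gja1 and Glul were present in all 6. Of the 10 tested, 7 were lower and 1 was higher in JAG1 libraries at an adjusted p under 0.05. Among all 11712 rows tested, 27.7% were lower and 27.4% higher. The median of the 10 was −1.25 on the log2 scale. Sox9 fell from 181 to 18 CPM and Nfia rose from 3.12 to 63.9 CPM, whereas the sum over the list, 3206 to 3702 CPM in control and 3375 to 3437 CPM in JAG1 libraries, was nearly all Vim, which is not particular to astrocytes. Of 8 fibroblast or mural markers 6 were tested, 5 were lower and Col1a2 was higher (3.35 and 50.7 CPM), beside the same 27.7% and 27.4%. Lum and Rgs5 were at 0, and the summed level of the 8 was 818 to 854 CPM in control and 312 to 360.4 CPM in JAG1 libraries. That of 9 neuron markers was 76.4 to 84.6 CPM and 8.39 to 9.37 CPM, nearly all of it Tubb3, with Syt1, Snap25 and Gad1 at 0 in all libraries. The 9 oligodendrocyte lineage markers summed to 5.07 to 6.82 CPM and 4.54 to 5.22 CPM, with Olig1, Sox10, Mog and Mag at 0, the 9 microglia markers to 5.75 to 6.22 CPM and 3.58 to 4.68 CPM, and the 7 endothelial markers to 1.38 to 2.2 CPM and 1.3 to 1.4 CPM, with Tek, Tie1 and Emcn at 0. The part of these shifts in the semaphorin results was not tested, and in bulk RNA fewer cells of a type and less RNA per cell cannot be told apart.

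In the JAG1 libraries, Sema6a was almost lost, Sema5a fell 4.74-fold, Sema4c fell 1.74-fold and Sema6d rose from almost no reads to a low level. Sema4b, the most abundant of the family, and the weakly expressed Sema6b and Sema7a did not pass the test. Sema6c was low in control and lower still in JAG1 libraries, and Sema4d and Sema4f had 3 reads or fewer in each of the 6 libraries. The filter on low counts, which asks for about 10 reads in at least 3 libraries, left 7 of the 10 genes to be tested. Of these, 1 was higher and 3 were lower at an adjusted p under 0.05, against 27.4% higher and 27.7% lower among all 11712 rows tested, or 4 of 7 in either direction against 55.1%. With a limit of 2-fold it was 1 higher and 2 lower, against 5.46% and 8.49%. Sema6d passed the filter only through the JAG1 libraries and Sema6a only through the control libraries. At the level of its lower group neither would have been tested, so that the count over the tested genes is a description. The median log2 fold change of the 7 tested genes was −0.41, beside a median of 0.00 over all rows tested.

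**Figure D1:**
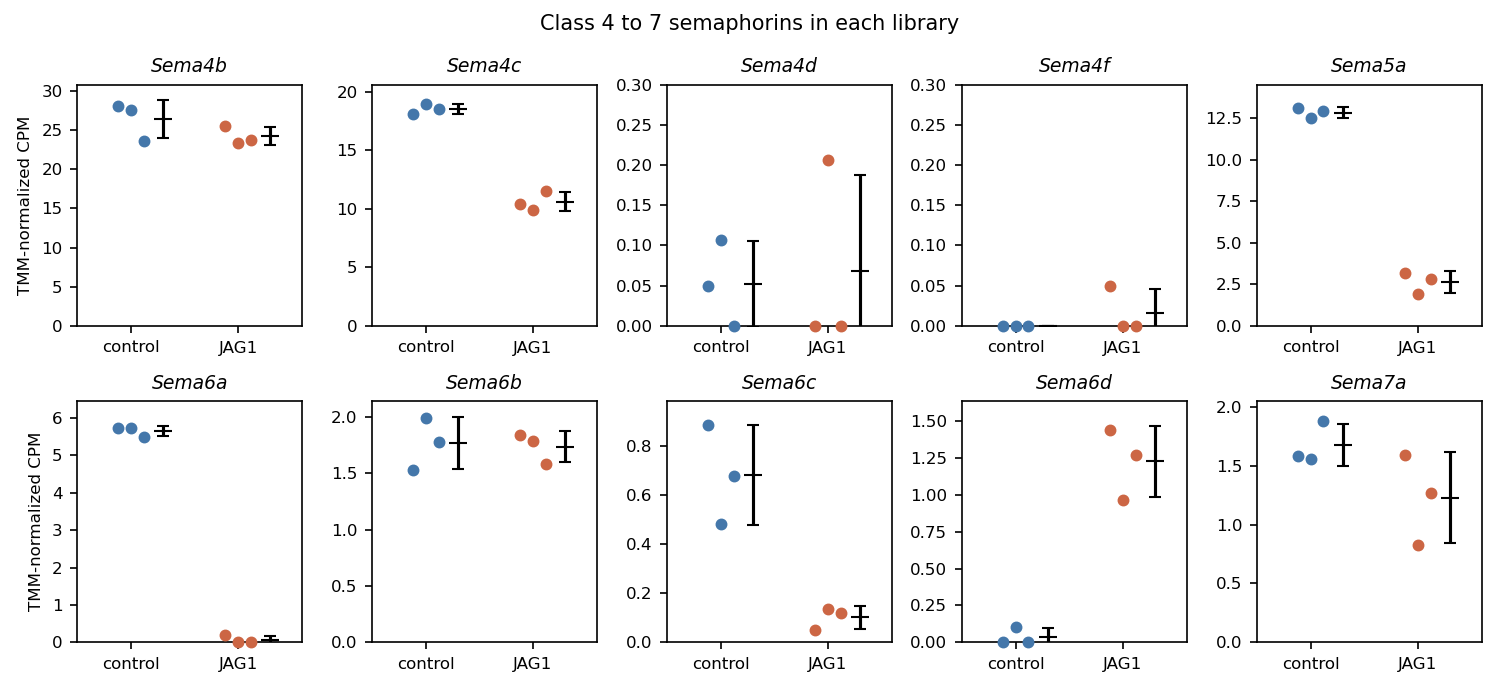
TMM-normalized CPM of the 10 semaphorin genes in each of the 3 control (blue) and 3 JAG1 (orange) libraries, with the mean and SD (n = 3) as a black bar, drawn no lower than 0; the vertical scale differs between panels. The JAG1 libraries lie below every control library for Sema4c, Sema5a, Sema6a and Sema6c and above for Sema6d, and the groups overlap for the other 5 genes.

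The library kit reads 1 stretch near the 3' end of each transcript, so that a level in CPM, the reads of a gene per 1e+06 reads after TMM scaling, was not divided by transcript length. On this scale the order in control cells was Sema4b (26.4 CPM), Sema4c (18.5 CPM), Sema5a (12.8 CPM) and Sema6a (5.65 CPM), each with a range over the 3 libraries apart from that of the next. Below them came Sema6b (1.76 CPM) and Sema7a (1.67 CPM), whose ranges overlapped, then Sema6c (0.684 CPM), and then Sema4d, Sema6d and Sema4f at 0.0522 CPM or less, which were not separated from each other. In JAG1 cells the first 3 places were unchanged, while Sema6b, Sema7a and Sema6d followed at 1.74, 1.23 and 1.23 CPM. The range of Sema7a overlapped those of Sema6b and Sema6d, and that of Sema6d was apart from the next, Sema6c. Sema6a was among the 4 genes at 0.103 CPM or less. Chromosome and gene position are given below for GRCm38, the build in the submitters' processing notes, from GENCODE release M21.

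Sema4b and Sema4c are transmembrane proteins whose tails bind PDZ proteins, and Sema4c is a ligand of plexin-B2. Sema4b (chr7:80186841-80226527, plus strand) had 568, 512 and 451 reads in control and 511, 340 and 391 in JAG1 libraries, that is 28, 27.5 and 23.6 CPM against 25.5, 23.4 and 23.7 CPM. The groups overlapped, and the log2 fold change was −0.12 with a 95% interval from −0.32 to 0.07 (adjusted p = 0.26), which leaves out a change of 2-fold in either direction. The SD of Sema4b over the control libraries was 9.2% of the mean, where the counting of reads alone gives 4.43%, with control replicate 3 the lowest.

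Sema4c (chr1:36548639-36558349, minus strand) had 366, 354 and 353 reads in control and 209, 144 and 189 in JAG1 libraries, or 18.1, 19 and 18.5 CPM against 10.4, 9.9 and 11.5 CPM. No JAG1 library came near a control library, and in both groups the replicates differed by about as much as counting error or less, with an SD of 2.53% and 7.56% of the mean. Sema4c fell by 0.80 on the log2 scale (standard error 0.09, adjusted p = 2.41e-05). Of the class 4 reads of a library, Sema4c took 41.3% ± 2.42 (SD, n = 3) in control and 30.4% ± 1.93 (SD, n = 3) in JAG1 libraries, a share that does not depend on the scaling between libraries. The ranges of this share did not overlap, from 39.1% to 43.9% and from 29% to 32.6%, and an exact permutation test with 3 against 3 libraries cannot go below a two-sided p of 0.1. Sema4c was the 1 called semaphorin with a mean of at least 10 CPM over all 6 libraries, and over these the tested genes outside the family whose centred log2 CPM ran closest to that of Sema4c were Fancg, Gm13139 and Lactb, with a root mean square difference of 0.0304, 0.0308 and 0.0392.

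Sema4d, the ligand of plexin-B1 that is best known from lymphocytes and oligodendrocytes, had 1, 2 and 0 reads in control and 0, 3 and 0 in JAG1 libraries. Sema4f had 1 read in all, in JAG1 replicate 1. Neither could be told from 0 at this depth, since 3 reads are worth 0.148 CPM in the deepest and 0.206 CPM in the shallowest library, a limit that covers counting error only. Of the other genes of these classes, Sema4a had 6, 15 and 14 reads in control and 5, 2 and 2 in JAG1 libraries and was not tested, Sema4g had 4 reads, all in control replicate 2, and Sema5b had 1.

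Sema5a, which carries thrombospondin repeats next to its sema domain and binds plexins and proteoglycans, lies on chromosome 15 (chr15:32244810-32696341, plus strand). It had 265, 233 and 246 reads in control and 64, 28 and 47 in JAG1 libraries, or 13.1, 12.5 and 12.9 CPM against 3.19, 1.93 and 2.85 CPM. The control libraries were nearly alike, with an SD of 2.27% of the mean, whereas the JAG1 libraries varied by 24.6% where counting gives 14.7%, and the groups were far apart. The log2 fold change was −2.24 (standard error 0.16, adjusted p = 4.14e-07), and 3.24% of all tested rows fell as far or further. Chromosome 15 as a whole was lower, with 346 of its 459 tested genes called lower and 32 higher and a median of −0.53 on the log2 scale, and the difference of Sema5a from this median was −1.71. The part of this chromosome-wide shift in the fall of Sema5a was not tested.

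**Figure D2:**
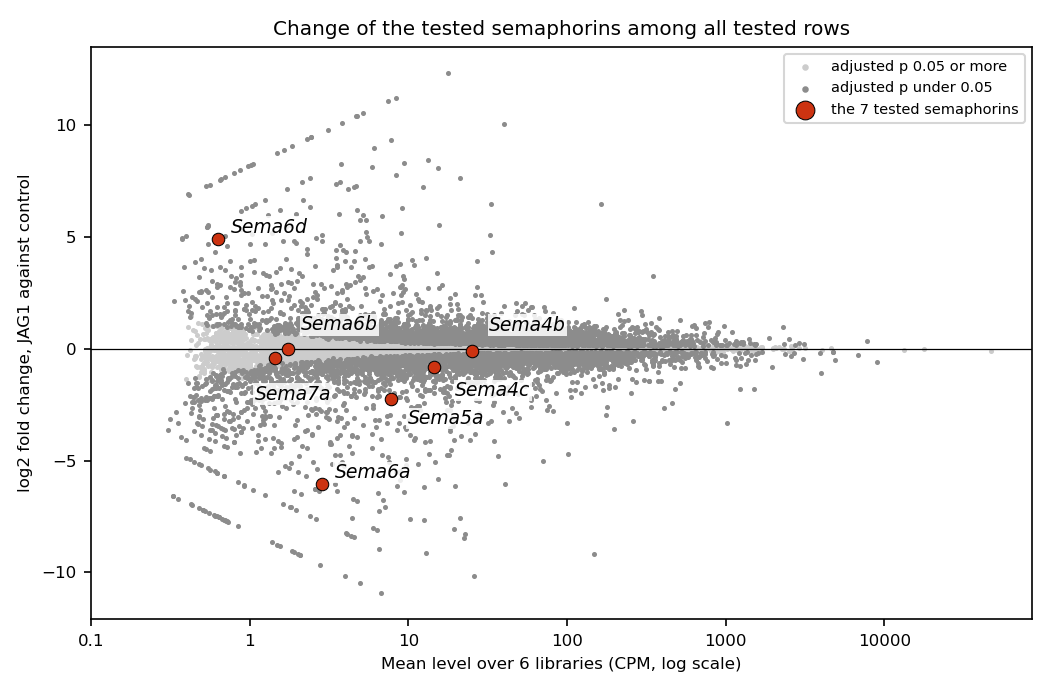
Log2 fold change (JAG1 against control) of each of the 11712 tested rows over its mean level in CPM on a log scale, dark grey where the adjusted p was under 0.05, with the 7 tested semaphorins in red. Sema6a at −6.06 and Sema6d at 4.92 lie near the edges of the cloud, Sema5a and Sema4c below its middle, and Sema4b, Sema6b and Sema7a close to 0.

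The largest fold changes of the tested genes were those of Sema6a and Sema6d in class 6, whose members have long cytoplasmic tails and signal through plexins of the A type. Sema6a, a ligand of plexin-A2 and plexin-A4 that steers granule cells in the cerebellum, lies on chromosome 18. It had 116, 107 and 105 reads in the control libraries and 4, 0 and 0 in the JAG1 libraries. The control replicates agreed within counting error, at 5.73, 5.74 and 5.49 CPM, and the 4 reads in the treated cells all came from JAG1 replicate 1, the deepest library of that group. The level in control was 72.2 times that in JAG1 cells, with an exact 95% interval from 27.9 to 267 that covers counting error only, and the fitted log2 fold change was −6.06 (standard error 0.43, adjusted p = 4.98e-07). Without JAG1 replicate 1 the fitted value was −9.65, so that its size, though not its call, rests on these 4 reads. The JAG1 libraries then left had 0 reads, so that no observed ratio stands behind the value of −9.65. Of all tested rows, 0.675% fell as far or further.

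Sema6d, which binds plexin-A1 and is known from heart development, spans chr2:124089969-124667770 on the plus strand. It went the other way, with 0, 2 and 0 reads in control and 29, 14 and 21 in JAG1 libraries, or 1.44, 0.963 and 1.27 CPM in the latter. Every JAG1 library held at least 7 times the reads of the highest control library, and both control reads came from replicate 2. The ratio of JAG1 to control was 36.3 with an exact 95% interval from 9.66 to 307 that covers counting error only. The fitted log2 fold change was 4.92 (standard error 0.67, adjusted p = 8.55e-05). Without control replicate 2 the fitted value rose to 7.50, but the control libraries then left had 0 reads, so that no observed ratio stands behind it. Of the tested rows, 0.734% rose as far or further, but the level reached in JAG1 cells was a low one, below that of Sema6b.

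Sema6b (chr17:56123085-56140343, minus strand), a further ligand of the plexins of the A type, had 31, 37 and 34 reads in control and 37, 26 and 26 in JAG1 libraries. The groups overlapped, at 1.53 to 1.99 CPM and 1.58 to 1.84 CPM, and the log2 fold change was −0.02 with a 95% interval from −0.52 to 0.48 (adjusted p = 0.956), so that smaller changes than these could not be seen at this depth. Sema6c (chr3:95160457-95174024, plus strand) had 18, 9 and 13 reads in control and 1, 2 and 2 in JAG1 libraries. It missed the filter because of control replicate 2, and no library of one group overlapped the other. Its level in control was 7.04 times that in JAG1 cells by the summed reads, 40 against 5, with an exact 95% interval from 2.78 to 22.9 for counting error only. With no filter on low counts its log2 fold change was −2.72 (standard error 0.70, edgeR adjusted p = 0.00134).

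**Figure D3:**
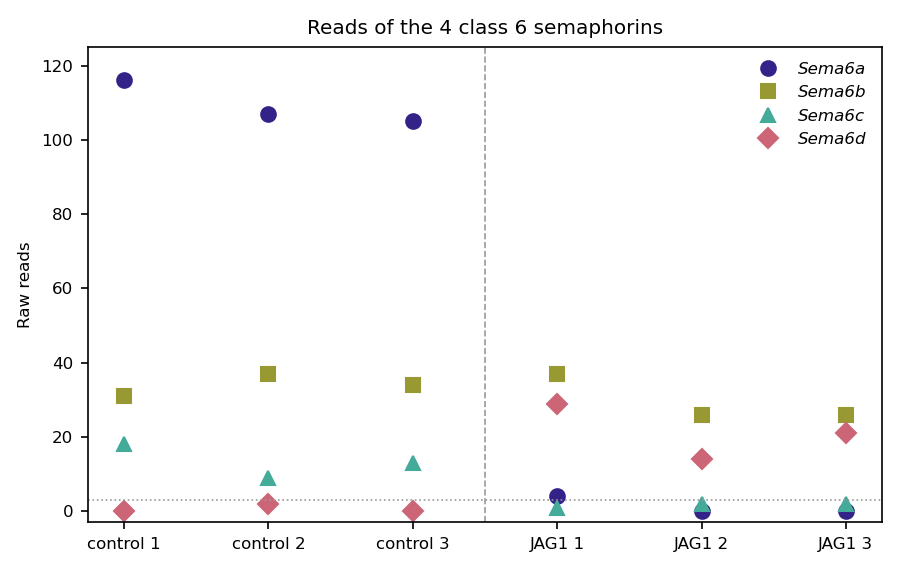
Raw reads on the 4 class 6 semaphorins in each of the 6 libraries (one symbol for each gene), with a dashed line between control and JAG1 libraries and a dotted line at 3 reads. Sema6a takes 105 to 116 reads in control and at most 4 in JAG1 libraries, Sema6d at most 2 and then 14 to 29, and Sema6b lies between 26 and 37 throughout.

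Within class 6 the reads were divided differently in the groups. Sema6a held 69.5% ± 0.721 (SD, n = 3) of the class 6 reads of a control library and 1.88% ± 3.25 (SD, n = 3) of those of a JAG1 library. Sema6d held 0.43% ± 0.745 (SD, n = 3) and 39% ± 5.02 (SD, n = 3), and Sema6b held 21.7% ± 2.61 (SD, n = 3) and 55.7% ± 5.4 (SD, n = 3), although its own level did not pass the test. Summed over the 4 genes, class 6 had 7.95 to 8.32 CPM in control and 2.89 to 3.54 CPM in JAG1 libraries, with a difference of 1.19 CPM in Sema6d beside one of −5.59 CPM in Sema6a.

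Of the 3 semaphorins called past 2-fold, Sema6a has no entry in the promoter table. For the other two, Sema5a and Sema6d, the bases before the RefSeq start sites (GRCm38.p6, plus strand, 250 bases each) are shown, with matches on either strand to TGGGAA, the core bound by RBPJ, the DNA-binding partner of Notch, and to CAGAC, part of the SMAD binding element, in capitals. RefSeq gives 1 start for Sema5a (chr15:32244563-32244812) and 2 for Sema6d (chr2:124089719-124089968 and chr2:124653331-124653580). The second Sema6d stretch lies within the gene span given above, and which start is used in these cells was not tested.

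Sema5a: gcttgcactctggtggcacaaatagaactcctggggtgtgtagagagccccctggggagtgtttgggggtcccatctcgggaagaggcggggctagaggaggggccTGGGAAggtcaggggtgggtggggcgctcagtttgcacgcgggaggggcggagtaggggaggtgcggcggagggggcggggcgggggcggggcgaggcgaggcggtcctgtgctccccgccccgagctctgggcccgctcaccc

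Sema6d, first start: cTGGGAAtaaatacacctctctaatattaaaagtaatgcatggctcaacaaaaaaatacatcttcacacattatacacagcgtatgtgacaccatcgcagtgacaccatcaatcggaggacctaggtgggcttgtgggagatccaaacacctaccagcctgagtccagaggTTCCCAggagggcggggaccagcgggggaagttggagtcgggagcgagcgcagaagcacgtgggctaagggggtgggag

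Sema6d, second start: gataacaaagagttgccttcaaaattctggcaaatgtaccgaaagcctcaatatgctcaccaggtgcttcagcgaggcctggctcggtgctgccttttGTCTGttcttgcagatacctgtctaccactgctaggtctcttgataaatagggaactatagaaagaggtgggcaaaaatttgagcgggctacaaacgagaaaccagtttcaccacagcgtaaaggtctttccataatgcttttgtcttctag

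The Sema5a stretch held TGGGAA once, beginning 144 bases before the start, and no CAGAC. That of the first Sema6d start held TGGGAA on the plus strand 249 bases and on the minus strand 79 bases before the start, and that of the second start held CAGAC once, on the minus strand 152 bases before it. Among all 32851 RefSeq promoters cut to the same length, 21.6% held TGGGAA and 42.2% held CAGAC on either strand. The E-box CANNTG, the kind of site bound by TWIST1, was found in 66.2% of them, 0 times in the Sema5a stretch, once before the first Sema6d start and 2 times before the second. These matches describe the sequence and say nothing of binding in these cells. The stretch of Sema5a was rich in G and C (72%), while those of Sema6d held 52.4% and 45.2%.

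Sema7a (chr9:57940112-57962865, plus strand), the lipid-anchored member, binds plexin-C1 and integrins with the beta-1 chain. It had 32, 29 and 36 reads in control and 32, 12 and 21 in JAG1 libraries, or 1.58, 1.56 and 1.88 CPM against 1.59, 0.825 and 1.27 CPM. JAG1 replicate 1 lay within the control range and replicate 2 was the lowest. The log2 fold change was −0.41 with a 95% interval from −1.02 to 0.21 (adjusted p = 0.237), and −0.21 without JAG1 replicate 2, and the interval includes a fall of 2-fold.

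Summed, the 10 genes had 68.9, 69 and 64.7 CPM in the control libraries and 44.2, 39.1 and 42.3 CPM in the JAG1 libraries. This difference of −25.6 CPM was made up mainly of Sema5a (−10.2 CPM), Sema4c (−7.91 CPM) and Sema6a (−5.59 CPM), whereas Sema4b gave −2.17 CPM, within its own spread. Of the reads on the 10 genes, Sema4b held 39% ± 2.24 (SD, n = 3) in control and 57.8% ± 1.84 (SD, n = 3) in JAG1 libraries, and Sema5a held 19% ± 0.869 (SD, n = 3) and 6.29% ± 1.21 (SD, n = 3). The share of Sema4c was 27.4% ± 1.16 (SD, n = 3) and 25.3% ± 1.79 (SD, n = 3), with ranges that overlapped. In all, the groups did not overlap for 5 of the 10 genes, 4 of them lower and 1 higher, beside 30.9% and 31.1% of all tested rows and 62% in either direction. The shares cover tested rows only, whereas 3 of the 10 genes were not tested, among them Sema6c, which is 1 of the 4.

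**Figure D4:**
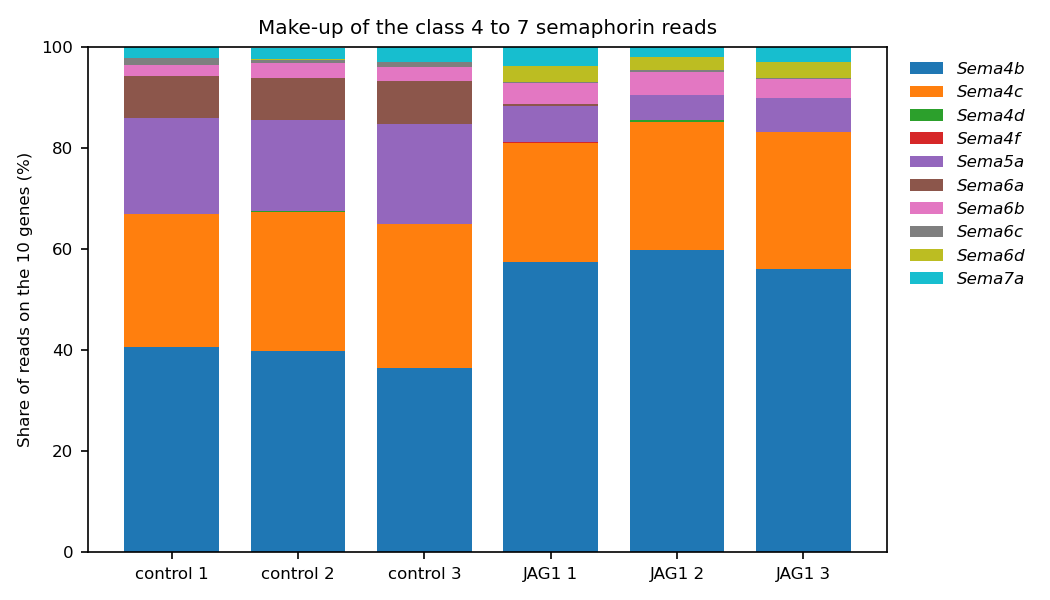
Share of each gene (colors) in the reads counted on the 10 semaphorin genes of a library (%), for the 3 control and 3 JAG1 libraries. Sema4b takes 36.4% to 40.7% in control and 56.1% to 59.8% in JAG1 libraries, while the Sema5a and Sema6a parts shrink and a Sema6d part of 2.46% to 3.27% appears.

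Of 9 genes for plexins, the receptors of these ligands, 7 were tested, 5 were lower and none was higher, against 27.7% lower and 27.4% higher of all tested rows, and the median log2 fold change was −0.61. Plxnb1, the receptor of Sema4d, had 372, 346 and 319 reads in control and 100, 69 and 85 in JAG1 libraries and fell by 1.85 on the log2 scale (standard error 0.11, adjusted p = 7.71e-08). Plxna3 fell by 1.09, from 9.2 ± 0.409 to 4.33 ± 0.172 CPM (SD, n = 3; adjusted p = 1.78e-05).

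Plxna1, the receptor of Sema6d, fell by 0.61 (34.9 ± 1.72 to 22.9 ± 1.69 CPM, SD, n = 3; adjusted p = 8.02e-05). Plxna2, a receptor of Sema6a, fell by 0.54 (45.1 ± 1.85 to 31 ± 3.06 CPM, SD, n = 3; adjusted p = 0.000229). The other receptor of Sema6a, Plxna4, had 0 reads in each library. Plxnb2, the receptor of Sema4c and the most abundant plexin, went from 81.2 ± 0.814 to 63.6 ± 2.1 CPM (SD, n = 3), a change of −0.35 on the log2 scale (adjusted p = 0.000329), and it lies on chromosome 15, whose median was −0.53. Plxnc1, the receptor of Sema7a, had 49, 39 and 27 reads in control and 28, 20 and 10 in JAG1 libraries, and its log2 fold change of −0.80 did not pass the test (adjusted p = 0.0613). Every JAG1 library lay below the controls in CPM, as for 30.9% of all tested rows, but barely, with 1.39 CPM in JAG1 replicate 1 and 1.41 CPM in control replicate 3. Plxnd1 had 25.1 ± 2.95 and 25.7 ± 1.89 CPM (SD, n = 3), with overlapping groups, and Plxnb3 had at most 3 reads in a library.

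**Figure D5:**
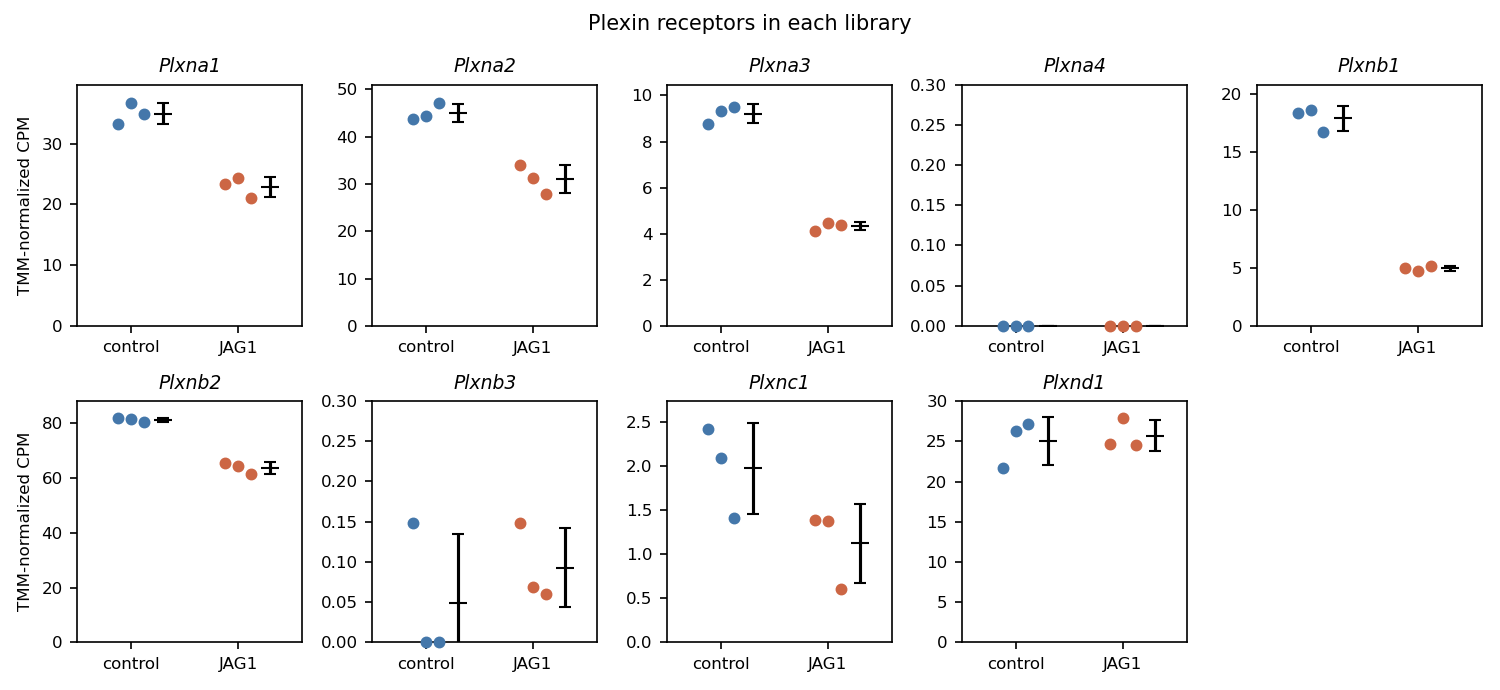
TMM-normalized CPM of the 9 plexin genes in each control (blue) and JAG1 (orange) library, with the mean and SD (n = 3) as a black bar, drawn no lower than 0; the vertical scale differs between panels. Plxna1, Plxna2, Plxna3, Plxnb1 and Plxnb2 are lower in each JAG1 library than in any control library, and Plxnd1 overlaps.

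Among 14 co-receptors and other partners of semaphorins and plexins, 8 were tested. Of these 1 was higher and 3 were lower, 4 of 8 in either direction against 55.1% of all tested rows, and the median change was −0.03 on the log2 scale. Ptk7, a pseudokinase of the cell surface, had 218, 241 and 232 reads in control and 1, 0 and 1 in JAG1 libraries. Its level in control was 304 times that in JAG1 cells, with an exact 95% interval from 83.9 to 2517 for counting error only. Nrp1, a co-receptor of plexins of the A type, fell by 0.66 (standard error 0.06, adjusted p = 5.34e-06). Sdc3, a heparan sulfate proteoglycan of the cell surface that binds Sema5a, was higher, at 44.3 ± 4.61 against 8.29 ± 0.425 CPM (SD, n = 3), up by 2.42 on the log2 scale (adjusted p = 6.23e-09). The receptor tyrosine kinases Met and Erbb2, which associate with plexins of the B type, and Itgb1, the integrin chain of the Sema7a receptor, had log2 fold changes of −0.00, 0.18 and −0.06 and did not pass the test.

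Of 41 genes that act below the plexins, 36 were tested, 9 were higher and 10 were lower, close to the 27.4% and 27.7% of all tested rows, and the median was 0.01 on the log2 scale. The largest falls were those of the kinase Fyn, from 15.4 ± 2.35 to 5.91 ± 0.89 CPM (SD, n = 3), a change of −1.39 in log2 (adjusted p = 1.29e-05), and of Dpysl3, a collapsin response mediator protein, from 367 ± 16.5 to 144 ± 7.68 CPM (SD, n = 3), a change of −1.35 in log2 (adjusted p = 7.67e-09). Rnd1, a small GTPase that binds plexins, rose by 0.94 (adjusted p = 4.45e-06) and Vasp, an actin regulator, by 0.63 (adjusted p = 2.46e-06). Of 4 proteases that can release or trim membrane semaphorins, 2 were higher and 1 was lower, against 27.4% and 27.7% of all tested rows. Mmp14, which cleaves Sema4d from the cell surface, fell from 445 ± 36.5 to 167 ± 12 CPM (SD, n = 3), a change of −1.41 in log2 (adjusted p = 2.86e-08). Adam10 rose by 0.35 (adjusted p = 0.00353). Furin had a log2 fold change of 0.21 (adjusted p = 0.0378) with overlapping groups, and its call was lost in 6 of 15 alternative fits, among them the omission of any library but control replicate 1. Adam17 did not pass the test (log2 fold change 0.12, adjusted p = 0.164).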

How the data were processed

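RNA of 3 control and 3 JAG1 libraries had been prepared with the QuantSeq 3' mRNA kit. Each library has a deposited table of 23282 rows, in which the authors gave raw read counts per gene symbol and, beside them, log2 values of their own normalized counts. The submitters' processing notes name Bowtie2, bedtools and edgeR and the build GRCm38 (mm10), without versions or roles, and the strand setting and annotation are not given in the sources used here. The 10 members and the gene lists were chosen with earlier results of these data known, so that no count over them is independent evidence.

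Counts were analysed in R 4.3.3 with edgeR 4.0.16. Rows were filtered by filterByExpr at a minimum of 10 reads, which left 11712, TMM factors were applied, and the groups were compared by the quasi-likelihood test with Benjamini-Hochberg adjustment over all of these rows and a threshold of 0.05. Standard errors were taken from the F statistic. Where a symbol stood on several rows, the row with the most reads was used. Exact intervals of ratios came from the binomial distribution of summed reads at a level of 95%. Chromosomes were matched by symbol or synonym for 11659 of the tested rows, and promoters for 9 of the 10 genes. All 10 genes are named in the text, as are all plexins and, from each other list, up to 2 called genes with the largest rise and 2 with the largest fall at a mean of at least 1 CPM. Others named beside them (Met, Erbb2, Itgb1, Adam17, the semaphorins outside the 10 genes, and markers) were chosen after their values were seen.

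Pearson's correlation of log2 CPM across rows was 0.989 to 0.994 within groups and 0.911 to 0.92 between them, and no pair within a group agreed within sampling noise (chi-square per degree of freedom at least 3.76). Alternatives were DESeq2 1.42.0, RLE, upper-quartile and library size scaling, no filter, a mean of 10 reads, a replicate block, limma 3.58.1 (voom, and trend on the authors' log2 values), a limit of 2-fold and leaving out each library. On simulated counts with 11670 rows tested, edgeR recovered 94% of the 100 genes changed by 1 on the log2 scale and 100% of the 99 changed by 2. Of its calls, 5.854% fell on unchanged genes. The simulation had 1 biological coefficient of variation for all rows (0.077), no batch, and changed genes with a mean of at least 10 reads. In the data 55.1% of the tested rows were called, so that these shares hold for the simulated setting only.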

Additional observations from a re-analysis of the deposited data

How the results depend on the processing

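The calls of Sema4c, Sema5a, Sema6a and Sema6d held in each of the 15 alternative fits, with log2 fold changes from −0.86 to −0.76, from −2.41 to −2.08, from −9.65 to −5.54 and from 4.0 to 7.50. The values −9.65 and 7.50 came from fits in which 1 group had 0 reads on the gene. All 15 fits reuse the same counts, and in the filtered ones Sema6a and Sema6d again passed the filter only through 1 group. Sema4b, Sema6b and Sema7a passed in none, with adjusted p from 0.0613 to 0.519, from 0.756 to 0.992 and from 0.125 to 0.548. Sema6b changed sign without control replicate 2 and without JAG1 replicate 3, its values without 1 library running from −0.11 to 0.07, and Plxnd1 did so without control replicate 1 and without JAG1 replicate 2, from −0.06 to 0.09. Sema6c was tested under 5 alternatives, no filter and 4 of those without a library, and was lower in each, with adjusted p from 0.00134 to 0.0145. In the 4 without a library it passed the filter only through control libraries, so that its direction there is a description. Plxnc1 passed with no filter, without control replicate 3 (adjusted p = 0.0224) and with the replicate block (adjusted p = 0.0248). The replicate numbers are shared by the groups. Deviations of same-numbered libraries correlated weakly, by 0.148, 0.0614 and 0.119, and those of differently numbered libraries by −0.144 to 0.0109. Each library thus correlated best with the one of its own number, and the labels do not say whether a number marks a shared batch. The replicate block changed no call of the 10 semaphorins (1 higher, 3 lower) and gave 6 lower plexins in place of 5. Of all 11712 tested rows, 3331 were lower with the block and 3247 without it. With a limit of 2-fold added to the threshold, Sema4c at 1.74-fold was lost, which left 2 of the 10 semaphorins lower and 1 higher. Likewise 2 plexins, 1 co-receptor and 4 effectors were lower, 0 effectors and 0 proteases higher. Of all tested rows, 8.49% were lower and 5.46% higher at this limit. Of the semaphorins outside the 10 genes, Sema4a was lower with no filter (1 gene), and without a library between 0 and 1 was lower, the 1 without control replicate 1 or JAG1 replicate 1. Without a library, 1 to 2 co-receptors were higher (2 without control replicate 1) and 1 to 3 proteases, 3 without control replicate 1 and 1 without any other library. With upper-quartile scaling 1 protease was higher. Under other scalings, the median of all rows moved by at most 0.02. Depth limits Sema4d and Sema4f, which could not be told from 0, and changes of Sema6b and Sema7a smaller than their intervals.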

Other observations

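The authors' normalized log2 column is not 0 wherever the read count is 0. In JAG1 replicate 2, 3776 of the 9321 rows with 0 reads carry a normalized value above 0, up to 0.625, and in JAG1 replicate 3 it is 3891 of 9436 rows, up to 0.333, while in the other 4 libraries no row with 0 reads has such a value. Sema6a, with 0 reads in both of these libraries, is listed there at 0.542 and 0.285, and in JAG1 replicate 1, with 4 reads, at 2.17. With the authors' values, the log2 fold change of Sema6a was −5.73 and that of Sema6d was 4.0.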
